A study of Mus musculus with 51 samples.

Results

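Mouse embryonic stem cells lacking both Eomes and T were compared with wild-type (WT) cells on day 2 of differentiation towards cardiac mesoderm. The deposited table holds an FPKM value (sequenced fragments of a gene, scaled to the length of its transcripts and to the mapped fragments of the library) for each of 24538 genes in WT and in Eomes/T double knockout (dKO) cells. Genes with an FPKM above 1 in either column were examined, which left 11195 genes. A gene was called lower or higher when the log2 ratio of dKO to WT, with 0.1 added to each FPKM, was below -1 or above 1, a change of more than 2-fold.

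WT cells were of the F1G4 line. Aggregates of these cells, freed of feeder cells (the ES stage), were placed in serum-free medium with 20 ng/ml Bmp4, and WT, Eomes KO, T KO and dKO cells all received Bmp4 on day 1, day 2 and day 3. In Eomes KO cells a Cas9(D10A) nickase was used with paired guides on either side of the promoter and the first exon of Eomes, and T KO cells were derived from F1G4 by the same means. The Smad4 KO cells used further on come from another line (129S/SvEvxC57BL/6), in which Cre removed a floxed first exon of Smad4, and were compared with the WT cells of that line under the same Bmp4 treatment. The dKO line was made from Eomes KO cells by targeting T, so dKO and Eomes KO cells share the Eomes deletion and everything else that distinguishes that clone from F1G4. Each knockout line was grown from a picked clone, so effects of the clone cannot be told apart from those of the deletion. The labels list 2 WT samples and 1 dKO sample on day 2, and the table gives a single pooled FPKM per condition. Values therefore carry no replicate error, no test was possible, and every call below is a difference in size between pooled columns. The numbers of reads behind the columns are unknown.

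Eomes and T (also called Brachyury) are T-box transcription factors, which bind DNA through a conserved T-box domain. In the gastrulating mouse embryo both genes are expressed in the primitive streak, where epiblast cells leave the epithelium and become mesoderm or endoderm. Eomes is needed for cells to leave the streak and for definitive endoderm and cardiac mesoderm, while T is needed for posterior mesoderm and the notochord. Nodal, WNT and BMP signals induce both.

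The knockouts were aimed at the promoters and first exons of these genes, and the 250 bases before each transcription start are shown here from RefSeq (GRCm38.p6, the assembly also called mm10, plus strand for all 4 genes). Fgf5, lower in dKO cells, and Id3, higher in dKO cells, are shown for comparison because their windows hold letters of the T-box core, which consists of AGGTGTGA in its longer form. Capitals mark AGGTGT or GGTGTG on either strand.
Eomes, chr9:118477939-118478188: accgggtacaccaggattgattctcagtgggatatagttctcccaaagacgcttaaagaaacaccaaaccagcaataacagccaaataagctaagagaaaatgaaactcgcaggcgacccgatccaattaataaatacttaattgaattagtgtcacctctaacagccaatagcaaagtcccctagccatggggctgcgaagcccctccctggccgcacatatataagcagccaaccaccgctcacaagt
T, chr17:8434173-8434422: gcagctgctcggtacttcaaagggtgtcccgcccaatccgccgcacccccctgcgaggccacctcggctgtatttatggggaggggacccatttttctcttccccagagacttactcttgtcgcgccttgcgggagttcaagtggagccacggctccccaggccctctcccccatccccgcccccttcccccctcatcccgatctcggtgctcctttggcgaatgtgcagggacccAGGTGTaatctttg
Fgf5, chr5:98253934-98254183: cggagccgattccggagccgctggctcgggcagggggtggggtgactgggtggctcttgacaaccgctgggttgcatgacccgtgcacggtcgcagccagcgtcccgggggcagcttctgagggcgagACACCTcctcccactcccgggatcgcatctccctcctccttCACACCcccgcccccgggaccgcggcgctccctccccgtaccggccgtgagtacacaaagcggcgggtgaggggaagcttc
Id3, chr4:136143572-136143821: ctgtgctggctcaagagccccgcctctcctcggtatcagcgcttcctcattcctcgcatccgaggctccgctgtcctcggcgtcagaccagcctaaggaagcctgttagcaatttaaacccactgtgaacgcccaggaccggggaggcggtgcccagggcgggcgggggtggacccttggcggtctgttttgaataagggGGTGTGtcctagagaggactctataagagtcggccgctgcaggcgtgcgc

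The Eomes window held none of these letters and the T window held AGGTGT at position -14, counted back from the start. GGTGTG, on either strand and partly overlapping AGGTGT where both occur, was present in 19.6% of the 327 lower genes that have a window, in 19.4% of the 227 such higher genes and in 17.5% of the 8748 such examined genes. Among all 17803 genes with a window the share was 18.3%. Counted per window rather than per gene, it was found in 16.2% of all 21454 windows of the same length. AGGTGT was found in 12.2% of the lower genes, 13.2% of the higher genes and 11.1% of the examined genes. Its share was 12.9% of all genes with a window and 11.2% of all windows. The full AGGTGTGA was found in 4 lower genes (1.22%), 4 higher genes (1.76%) and 0.754% of the examined genes. Its share was 1.21% of all genes with a window and 1.03% of all windows. The shorter forms were thus about as common before the starts of called genes as before those of examined genes, and the longer form rests on few genes.

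Both targeted genes were measured at low levels in dKO cells. T (chr17:8434423-8442496) stood at an FPKM of 43.0 in WT and 2.77 in dKO cells, a log2 ratio of -3.91. Eomes (chr9:118478186-118486132) stood at 9.40 in WT and 1.24 in dKO cells, a log2 ratio of -2.83. At the ES stage of the wild type the values were 0.952 for Eomes and 0.0784 for T, and 2.38 and 0.778 a day later. As numbers, the dKO values lay near the WT value of ES cells for Eomes and between the WT values of day 1 and day 2 for T. The paper reports, from RT-PCR and western blots, that the differentiated knockout cells lacked the transcripts and proteins of the deleted genes. With promoter and first exon targeted, the remaining FPKM need not reflect intact transcripts, and its source was not tested. On day 3 the dKO column held 1.93 for T against 332 in WT, and 0.346 for Eomes against 20.2.

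The single knockouts, from tables that use the same WT samples, did not give the same picture for these 2 genes. T remained at 22.3 in Eomes KO cells, against 6.64 in T KO and 2.77 in dKO cells. Eomes was at 24.7 in T KO cells, above the WT level, with a log2 ratio of 1.32, and at 2.42 in Eomes KO cells. Of the 17 T-box genes in the table, only T, Eomes, Tbx3 and Mga were examined. Tbx3 and Mga both had a log2 ratio of -0.44 and were not called.

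Of the 11195 genes, 448 (4.00%) were lower and 373 (3.33%) were higher in dKO cells. The median log2 ratio over all examined genes was -0.01. At log2 ratios beyond 2 the counts were 49 lower and 100 higher. For scale, the WT cells of the Smad4 line had 337 genes (3.03%) lower and 155 (1.39%) higher than F1G4 WT cells on day 2 among 11116 genes examined across the tables. The balance of the calls depended on the scale: after each column was rescaled to the same fixed sum (TPM), 1755 genes were lower and 268 higher (13.2% of the calls higher, against 45.4%), and the median of all examined genes moved to -0.42. With short RNA genes left out and the columns brought to the same sum, 1043 were lower and 150 higher (12.6% higher). Directions below are on the deposited scale, and list medians are to be read against these shifts. Counts of called list members are to be read against the 4.00% lower and 3.33% higher over all examined genes, and no list was tested. The gene lists were chosen with earlier results of these data known, so their counts may not be independent of the calls.

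**Figure D1:**
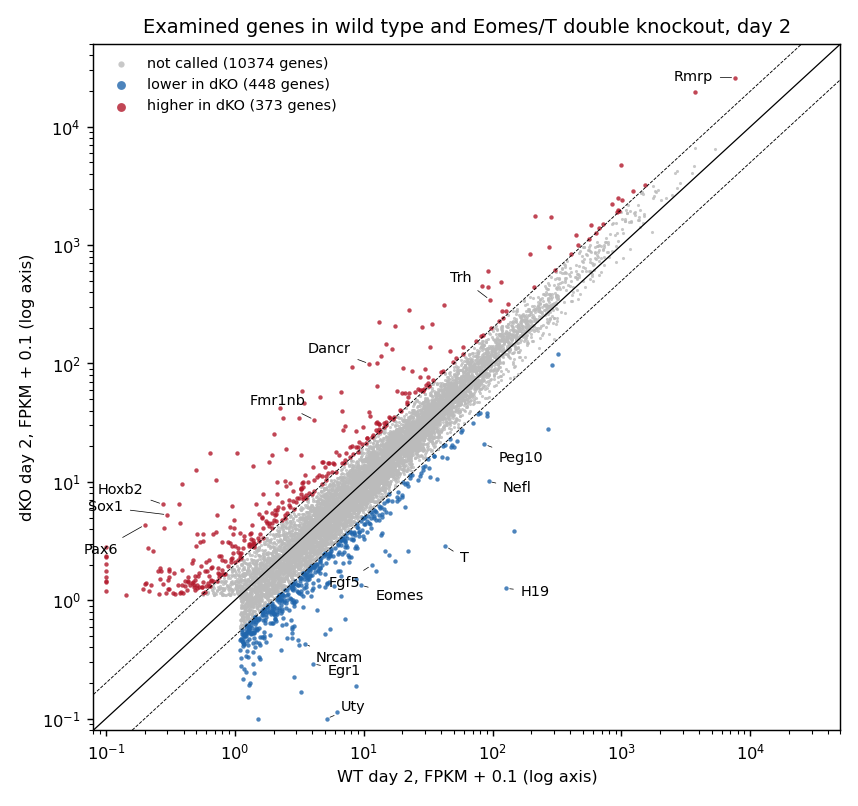
FPKM of the 11195 examined genes in WT (horizontal) and dKO cells (vertical) on day 2, both with 0.1 added and on log axes. Each point is a gene, blue for the 448 lower and red for the 373 higher in dKO cells; the solid line marks equal values and the dashed lines a 2-fold change. H19, T and Eomes lie far below the line, Hoxb2, Sox1 and Pax6 far above it at low WT levels, and short RNAs such as Rmrp above it at the top.

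Several features of the whole column went along with these calls. The FPKM of all genes summed to 608585 in dKO and 458639 in WT cells, and short RNA genes took 9.91% of the sum in dKO and 3.13% in WT cells. Among 74 examined short RNA genes 65 were higher and 1 lower, with a median of 2.69. Rmrp, an RNA processing RNA, was at 7624 in WT and 25949 in dKO cells, and Rpph1, the RNA of ribonuclease P, at 3707 and 19722. Ribosomal protein genes (13 higher and 2 lower of 89, median 0.63) and replication-dependent histone genes (15 higher and 4 lower of 66, median 0.66) also had medians above 0, and all of these classes have short transcripts. With the trend on transcript length subtracted, 4 ribosomal protein genes (median 0.21) and 3 histone genes (median 0.17) were still higher. Protein-coding genes with the shortest transcripts (2200 bases at most) had a median log2 ratio of 0.26, with 83 lower and 148 higher. Those with the longest (4770 bases or more) had a median of -0.27, with 146 lower and 16 higher. In Eomes KO cells these medians were 0.08 and -0.09. The part of transcript length in the results below was not tested beyond subtracting this trend, and the 13 named genes that lost their call with it were Col5a1, Fbn1, Fn1, Furin, Id3, Lefty1, Pfkp, Phlda2, Plxnb2, Robo1, Sycp3, Tdgf1 and Twist1.

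**Figure D2:**
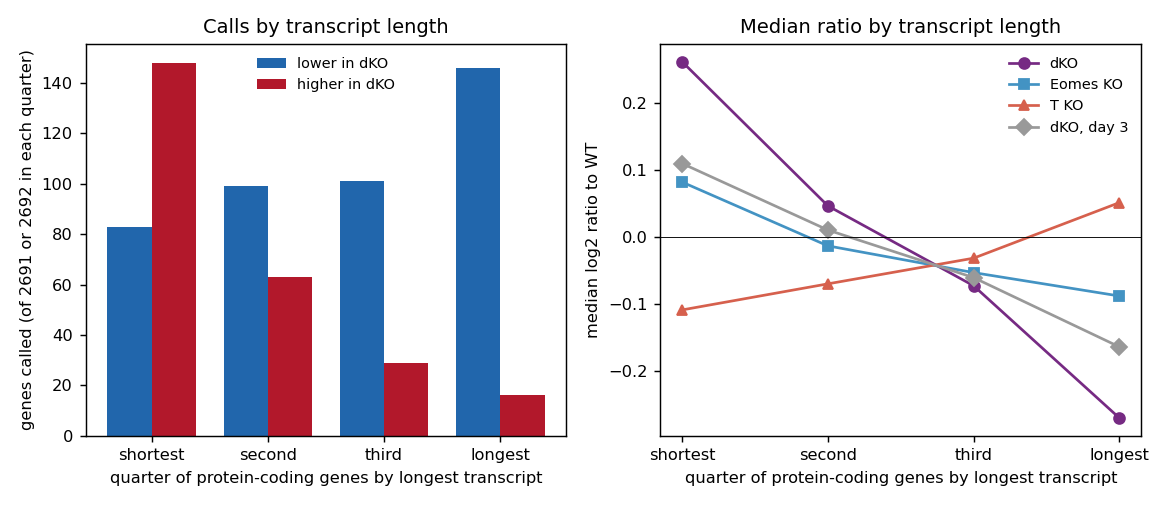
Left, number of genes called lower (blue) and higher (red) in dKO cells on day 2 among protein-coding genes, divided into 4 groups of nearly equal size by the length of their longest transcript. Right, median log2 ratio to WT in the same groups for dKO, Eomes KO and T KO cells on day 2 and dKO cells on day 3. Calls higher in dKO cells decrease from 148 to 16 with length, and the dKO median falls from 0.26 to -0.27.

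The transcripts of the primitive streak were divided between lower and higher. Of 28 streak and nascent mesoderm genes 14 were examined, with 5 lower and 4 higher, a median of -0.27. Beside T and Eomes the lower genes were Sp5, Mixl1 and Hand1. Sp5, a WNT-induced zinc finger factor, was at 2.21 in WT and 0.521 in dKO cells (log2 ratio -1.89). Mixl1, a homeobox gene of the streak, was at 1.11 and 0.239 (-1.84). Hand1, a bHLH factor of lateral, extraembryonic and cardiac mesoderm, was at 8.57 and 2.78 (-1.59). All 3 were low in WT ES cells, at 0.140, 0.267 and 0.121. The streak gene Evx1 (3.46 and 3.22) and the Activin antagonist Fst (18.9 and 11.7) were not called, and Mesp1, Tbx6, Snai1 and Foxa2 had an FPKM below 1 in both columns.

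The 4 higher genes of this list, Cdx1, Cdx2, Nkx1-2 and Tcf15, include the caudal factors that pattern the posterior body. Cdx2 was at 0.609 in WT and 3.66 in dKO cells (log2 ratio 2.41), and Cdx1 at 0.203 and 1.38 (2.29). Nkx1-2, known from the caudal epiblast that gives rise to spinal cord and trunk mesoderm, was at 2.04 and 7.86 (1.89). Tcf15, a bHLH factor of paraxial mesoderm, was at 3.17 and 8.64 (1.42). In the F1G4 wild type, Cdx2 reached 7.55 and Nkx1-2 10.0 only on day 3. The WT cells of the Smad4 line, from separately scaled columns, held 6.97 of Nkx1-2 and 0.635 of Cdx2 on day 2.

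Hoxb1 and Hoxb2 were higher in dKO cells. They lie near the 3' end of their cluster, which is transcribed before the rest of the cluster during axis formation. Hoxb2 (chr11:96351632-96354020) was at 0.177 in WT and 6.35 in dKO cells, a log2 ratio of 4.54 and the largest among the called genes with an FPKM of at least 5, short RNA genes aside. Hoxb1 was at 0.0435 and 1.02 (2.96), just above the FPKM minimum. In the wild type on day 3 Hoxb2 was at 6.16 and Hoxb1 at 2.80. Meis2, whose product is a partner of Hox proteins on DNA, was at 3.16 and 16.6 (2.36). The levels in Eomes KO cells were 4.94 for Hoxb2, 1.12 for Hoxb1 and 16.6 for Meis2.

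**Figure D3:**
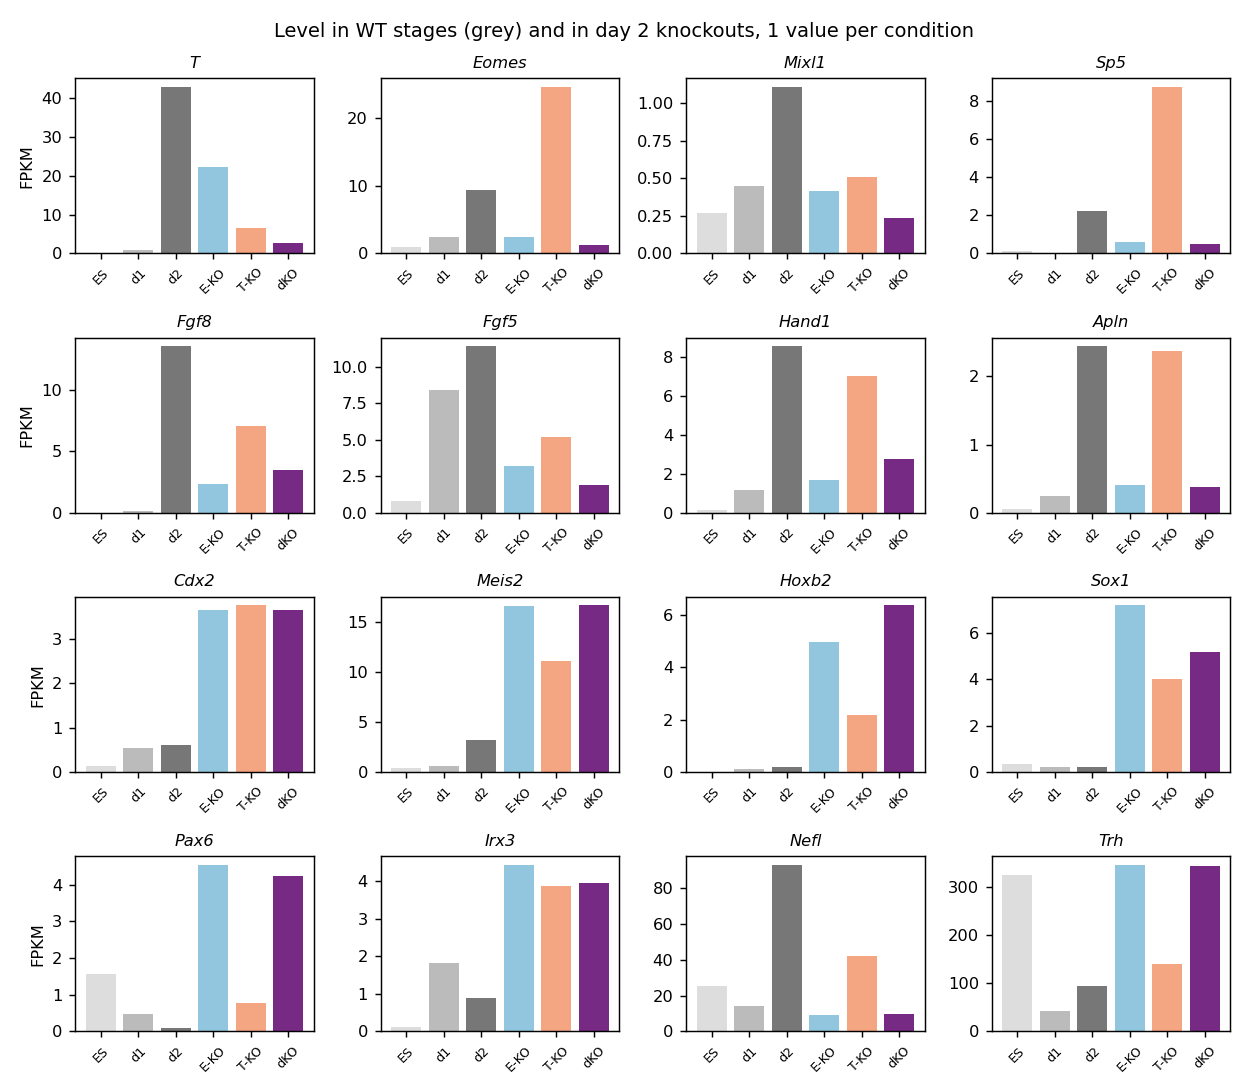
FPKM (vertical, linear from 0, its own range in each panel) of 16 genes in WT (grey; ES cells, day 1 and day 2) and in the knockout lines on day 2 (E-KO for Eomes KO, T-KO for T KO, and dKO); each bar is the pooled value of a condition and columns come from separately scaled tables. T, Mixl1, Fgf8 and Fgf5 are lower in dKO cells than in WT on day 2, and Cdx2, Meis2, Hoxb2, Sox1, Pax6 and Irx3 higher; Eomes and Sp5 are highest in T KO cells.

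Of 26 genes of cardiac and lateral mesoderm only 6 passed the minimum, and 3 of them were lower. Apln, the ligand of the apelin receptor of cardiac progenitors, was at 2.45 in WT and 0.384 in dKO cells (-2.39). Nrcam, a cell adhesion molecule, was at 3.38 and 0.327 (-3.03), and Hand1 belongs to this list as well. Actc1, a cardiac actin, was higher, at 0.845 and 2.78 (1.61). The median of the 6 was -0.89. Nkx2-5, Tbx5, Gata4 and Myl7, genes of the heart lineage, were below an FPKM of 1 in both columns on this day. The blood and endothelial list had 4 genes examined, with a median of 0.71 (0.14 on the TPM scale). Lmo2 was higher (0.647 and 1.61), but was not called on the TPM scale. The definitive endoderm list had 6 genes examined, with no gene lower and Trh and Spink1 higher, and a median of -0.24. Sox17, Foxa2 and Gata6 were below 1 in both columns.

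Neural genes were called mainly on the higher side. Of 49 neural fate genes 20 were examined, 6 were higher and 2 lower, with a median of 0.43 (0.03 on the TPM scale). The trait was shared with the single knockouts, each set against the same WT samples. Of these 20 genes, 9 were higher and 1 lower in the Eomes KO column (median 0.63), and 8 and 1 in the T KO column (median 0.86). Sox1 (chr8:12395519-12399555), which marks the neural plate, was at 0.200 in WT and 5.17 in dKO cells (4.14). Pax6, a paired box gene of forebrain, eye and spinal cord, was at 0.100 and 4.23 (4.43). Irx3 was at 0.891 and 3.94 (2.03), Irx5 at 0.243 and 1.02 (1.71), En2 at 0.208 and 1.72 (2.56) and Gbx2 at 0.438 and 2.99 (2.52). These are regional genes of the neural plate, from the midbrain and hindbrain for En2 and Gbx2, and Gbx2 is also a gene of naive ES cells, where WT cells held 15.1. Sox2 was at 21.3 and 42.1, a log2 ratio of 0.98, just below the limit. The 2 lower genes were Pou3f1 (5.23 and 2.28) and Nrcam. Six3, a gene of the anterior forebrain, did not reach an FPKM of 1 in either column.

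Sox1, Pax6, Irx3 and Irx5 were below their day 2 dKO level in every WT stage from ES cells to day 3. Sox1 was at 0.339, 0.220, 0.200 and 0.198 in WT ES cells and on days 1, 2 and 3, and at 6.49 in dKO cells on day 3. Pax6 was at 1.56, 0.481, 0.100 and 0.0488 in the same stages and at 4.03 in dKO cells on day 3. Both genes thus had dKO levels above 4 on day 2 and day 3, far above WT on both days. Nefl, a neurofilament gene, went the other way, with 92.9 in WT and 10.0 in dKO cells (-3.20).

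Most pluripotency genes were not called. Of 23 core and formative genes, 18 were not called, among them Pou5f1, which encodes Oct4 (733 and 1004). Fgf5, the marker of the formative epiblast, was lower at 11.4 and 1.87 (-2.54), together with Pou3f1. Dppa5a (273 and 970, log2 ratio 1.83), Trh (95.2 and 345, 1.86) and Tdgf1 (563 and 1129) were higher. Tdgf1, the Nodal co-receptor Cripto, passed by a margin of less than 0.01 and was no longer called after TPM rescaling or once the length trend was subtracted. Of 15 naive pluripotency genes 1 was lower (Spp1) and 2 higher (Gbx2 and Nr0b1), with a median of -0.23. Of 14 germ cell genes 2 were lower and 3 higher: Rhox5 was at 17.3 and 2.05 (-3.02) and Rhox6 at 28.9 and 13.1 (-1.13), against Mael, Dppa5a and Sycp3 on the higher side. Sycp3 lost its call after TPM rescaling, with the WT column of the time course and with the length trend subtracted. The medians were 0.25 for the core and formative list and 0.31 for the germ cell list, and both turned below 0 after TPM rescaling, at -0.16 and -0.08.

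**Figure D4:**
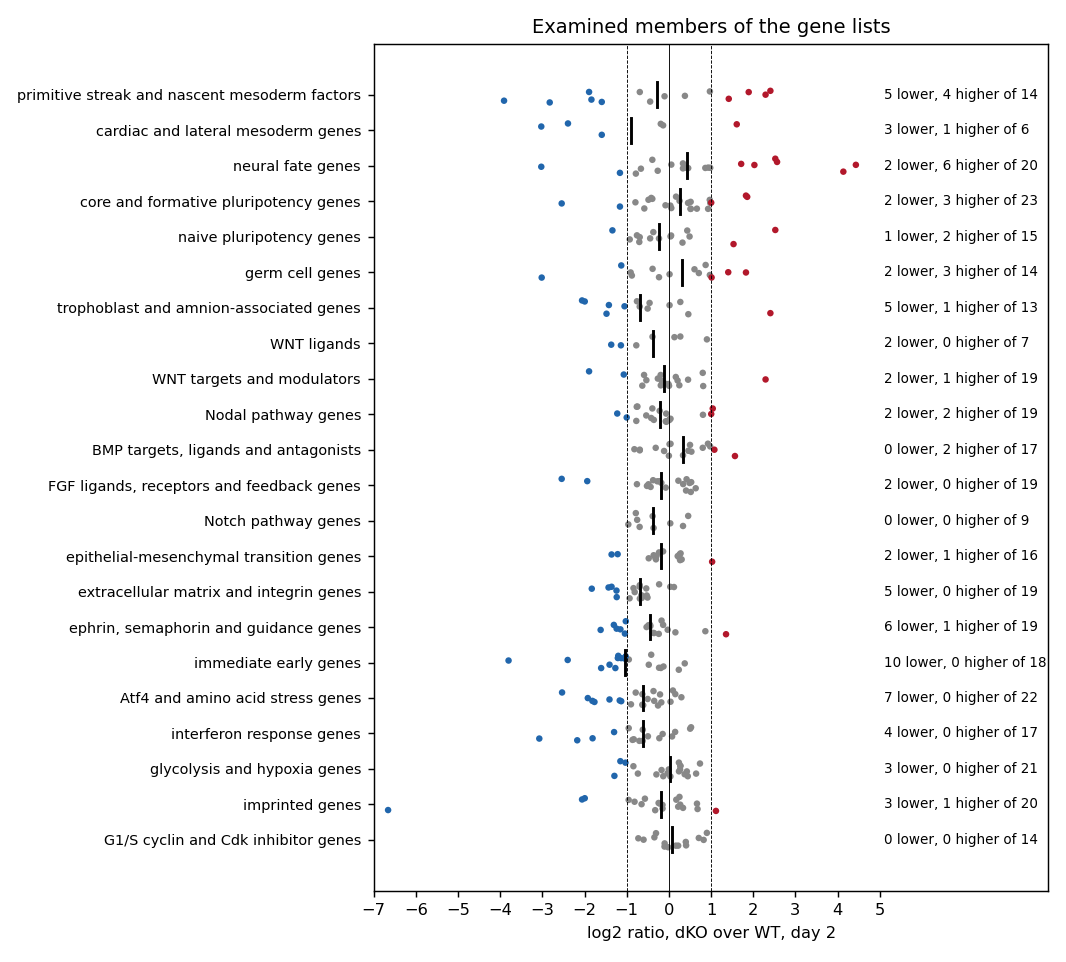
Log2 ratio of dKO to WT on day 2 (horizontal) for each examined member of 22 gene lists (rows). Points are genes, blue when lower, red when higher and grey when not called; the thick bar is the list's median, dashed lines mark the limits at -1 and 1, and the text gives the counts. Immediate early genes lie mostly on the left with 10 of 18 lower, neural genes extend to the right, and the streak list extends to both sides.

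Most genes of the signals that induce mesoderm were not called, with a few ligands as exceptions. For comparison, 4.00% of all examined genes were lower and 3.33% higher. Of 19 FGF genes examined, Fgf5 and Fgf8 were lower. Fgf8, the ligand needed for mesoderm cells to migrate from the streak, was at 13.6 in WT and 3.47 in dKO cells (-1.94), and had been at 0.0172 in WT ES cells and 0.151 on day 1. The list median was -0.18. The FGF targets Etv4 (7.18 and 10.3) and Spred1 (34.8 and 50.2) were not called.

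Among WNT ligands 7 were examined and 2 were lower, Wnt7b (1.38 and 0.475) and Wnt9a (log2 ratio -1.14), with a median of -0.39. The streak ligands Wnt3 (16.2 and 12.4) and Wnt8a (17.5 and 32.8, log2 ratio 0.90) were not called. Among 19 WNT targets and modulators, Sp5 and Axin2 were lower and Cdx1 was higher, with a median of -0.11. Axin2, a feedback inhibitor of the pathway, was at 10.8 and 5.09 (-1.07). Lef1 was at 3.62 and 5.00. In T KO cells Sp5 was at 8.77 and Axin2 at 22.5, both above the WT level.

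Nodal itself was at 31.8 in WT and 24.8 in dKO cells (-0.36). Of 19 Nodal pathway genes examined, Pmepa1 and Furin were lower and Lefty1 and Tdgf1 were higher. Lefty1, a Nodal antagonist and target, had a log2 ratio of 1.04, while Lefty2 was at 29.7 and 30.1. Pmepa1, a feedback inhibitor of TGF-beta signals, was at 3.56 and 1.46 (-1.23). Furin and Lefty1 were no longer called once the length trend was subtracted, and Lefty1 was not called after TPM rescaling either. The median was -0.22.

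Most genes in the list of BMP targets, ligands and antagonists were not called. Of 17 genes examined none was lower and 2 were higher, Msx2 (3.23 and 9.77, log2 ratio 1.57) and Id3 (39.9 and 84.4, 1.08). Over all examined genes, 4.00% were lower and 3.33% higher. Id1 (51.3 and 101, 0.98) and Id4 (3.54 and 6.82, 0.93) lay just below the limit. The Id proteins block bHLH factors and their genes are direct BMP targets. The list median of 0.33 turned to -0.20 after TPM rescaling, and Id3 was no longer called on that scale or with the length trend subtracted. Of 9 Notch pathway genes (median -0.39) and 7 retinoic acid pathway genes (median -0.09) none was called, and the 2 chemokine genes examined were not called either (median 0.77).

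Genes of the cell surface and matrix were called mainly on the lower side. Of 19 extracellular matrix and integrin genes 5 were lower and none higher, with a median of -0.69. They were Nid1 (3.77 and 0.988), Nid2 (21.8 and 9.18), Fn1 (8.11 and 3.10), Col5a1 (2.29 and 0.911) and Itga8 (2.03 and 0.690), which encode nidogens of the basement membrane, fibronectin, a fibrillar collagen chain and an integrin subunit. Their transcripts are long, with a list median of 5812 bases against 3310 for all examined genes. After subtraction of the length trend 3 remained lower and the median was -0.53, with Fn1 and Col5a1 lost. In the single knockouts, 3 of the 19 genes were lower in Eomes KO and 5 in T KO cells, with none higher. Of 19 ephrin, semaphorin and guidance genes 6 were lower and 1 higher, with a median of -0.44. The lower genes were Slit3 (1.86 and 0.539), Efna5 (2.30 and 0.869), Robo1 (1.84 and 0.722), Plxnb2 (12.3 and 5.51), Epha1 (23.4 and 11.3) and Efna3 (2.18 and 1.02), and the higher gene was Epha7 (1.99 and 5.23). The transcripts of this list are long as well, with a median of 4793 bases. With the length trend subtracted Robo1 and Plxnb2 were lost, 4 genes were lower and 2 higher, and the median was -0.32. Epha7 was not called after TPM rescaling.

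Epithelial-mesenchymal transition is the process by which streak cells lose their epithelial contacts. Of 16 of its genes, Fn1 and Mmp14 were lower and Twist1 higher, and the median was -0.19. For comparison, 4.00% of all examined genes were lower and 3.33% higher. Fn1 and Twist1 were no longer called with the length trend subtracted, and Twist1 was not called after TPM rescaling either. Cdh1, the epithelial cadherin, was at 163 in WT and 131 in dKO cells. Cdh2, the mesenchymal cadherin, was at 1.10 and 1.29 on day 2, and at 5.78 in WT and 0.592 in dKO cells on day 3. The lists of fibroblast transcripts and of Y-linked genes served to describe the cells themselves. Of 14 fibroblast transcripts 4 were examined and 1, Fbn1, was lower, though not with the length trend subtracted, with a median of -0.27. Col1a1, Col1a2 and Col3a1, which feeder fibroblasts express strongly, were below an FPKM of 1 in both columns.

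Immediate early genes were called on the lower side alone. Of 18 examined 10 were lower and none higher, with a median of -1.04, and 11 were lower with the length trend subtracted. Egr1, a zinc finger factor induced within minutes of a growth signal, was at 3.96 in WT and 0.191 in dKO cells (-3.80). Fos was at 2.69 and 0.429 (-2.40), Egr2 at 1.16 and 0.315 (-1.61), Junb at 11.2 and 4.82 (-1.20) and Jun at 14.4 and 6.49 (-1.13). In the Eomes KO column 9 and in the T KO column 7 of these 18 genes were lower, each against the same WT samples. On day 3, where WT and dKO samples are others, 2 were lower and the median was -0.26.

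Genes under the stress factor Atf4 were lower in part. Of 22 examined 7 were lower and none higher, with a median of -0.62. The trait was shared: 9 of these genes were lower in Eomes KO cells, 10 in T KO cells and 8 in dKO cells on day 3, with none higher. Chac1, which degrades glutathione, was at 8.69 and 1.42 (-2.53). Trib3 was at 13.9 and 3.58 (-1.92), and Mthfd2, an enzyme of mitochondrial one-carbon metabolism, at 70.4 and 31.3 (-1.17). Atf4 itself was at 299 and 160 (-0.90). Of 17 interferon response genes 4 were lower and none higher, with a median of -0.62. They were Isg15 (1.18 and 0.0516), Psmb8 (5.82 and 1.21), Ifitm3 (36.8 and 10.4) and Irf1 (27.3 and 11.0). In Eomes KO cells 4 of the 17 were lower, in T KO cells 6 were lower and 1 higher, and 8 were lower in dKO cells on day 3. Of 21 glycolysis and hypoxia genes 3 were lower (Ndrg1, Vegfa and Pfkp) and none higher, with a median of 0.04 that turned to -0.37 after TPM rescaling, and Pfkp was not called with the length trend subtracted. None of the 14 genes of the G1/S transition was called, with a median of 0.07 that turned to -0.33 on that scale.

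H19, a maternally expressed imprinted RNA, had the lowest log2 ratio of all called genes with an FPKM of at least 5. H19 (chr7:142575530-142578146) was at 127 in WT and 1.16 in dKO cells, a log2 ratio of -6.66. It was also near 1 in Eomes KO (0.741) and T KO cells (0.992), while WT cells held 10.4 in ES cells, 20.3 on day 1 and, on day 3, 651 against 4.49 in dKO cells. Of 20 imprinted genes examined 3 were lower (H19, Peg10 and Ascl2) and 1 higher (Phlda2, not called after TPM rescaling or with the length trend subtracted), with a median of -0.18. Igf2, the paternally expressed neighbour of H19, was at 15.4 and 7.89 (-0.95). Peg10 was at 86.4 and 20.7 (-2.06). Peg10 and Ascl2 are also in the trophoblast and amnion list, where 5 of 13 genes were lower and 1 higher, with a median of -0.69. Its other lower genes were Krt19 (44.3 and 15.8), Ahnak and Igfbp3, and the higher gene was Cdx2.

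Y-linked transcripts were close to 0 in dKO cells. Uty was at 5.06 in WT and 0 in dKO cells, Eif2s3y at 8.57 and 0.0900, and Ddx3y at 3.14 and 0.0673. Eif2s3y was at 0.105 in Eomes KO and 0.0981 in T KO cells. The knockout lines thus share near-zero levels of transcripts that the WT column holds, and the part of this difference in the other calls cannot be told apart from that of the deletions. By chromosome, the median log2 ratio was 0.17 on chromosome 8 (627 genes) and 0.16 on chromosome 13 (451 genes), which holds the large histone cluster, and between -0.09 and 0.01 on the other autosomes and X. Chromosome 8 had medians of 0.17 in Eomes KO, 0.19 in T KO and 0.22 in dKO cells on day 3. It carries Irx3, Irx5 and Sox1, which had a log2 ratio of 4.14 in dKO cells on day 2. The part of the chromosome in these calls was not tested.

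The remaining genes with the lowest log2 ratios were transcripts with close copies or unusual annotation. Asdurf, which shares a transcript with Asnsd1, was at 6.11 in WT and 0.0133 in dKO cells, but the sum of Asdurf and Asnsd1 was 84.5 and 67.3, so the split between them is uncertain. The pseudogenes Rplp2-ps1 (146 and 3.71), Npm3-ps1 (5.35 and 0.475) and Gm9833 (7.04 and 0.588) were lower, while Rplp2-ps1 and Rplp2 together stood at 2830 and 3016, and Npm3-ps1 and Npm3 at 97.5 and 66.3. Rnaset2a was at 22.1 and 2.52, and with its copy Rnaset2b at 24.9 and 4.06, a log2 ratio of -2.59. On the higher side the remaining genes were Csn3, a milk casein gene (0.267 and 6.38, log2 ratio 4.14), Syce3, of the synaptonemal complex (0.623 and 5.14), Ackr4, a chemokine scavenger receptor (1.57 and 7.83), and Fmr1nb, a testis antigen gene (4.04 and 33.3). Dancr (10.9 and 99.4), Gm12238 (6.62 and 57.6), AF357425 (16.5 and 132) and AF357355 (20.3 and 90.7) were higher as well. Dancr is a long noncoding RNA and the others are annotated as small nucleolar RNAs. However, Dancr (chr5:74093060-74094337) spans the small nucleolar RNA gene Snora26 (chr5:74093530-74093650), which was at 8.07 in WT and 92.5 in dKO cells. Whether the Dancr value is separate from that of Snora26 was not tested.

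The dKO column was much closer to the Eomes KO column than to that of T KO cells. Set side by side across tables, with WT columns that differed by a factor of 0.998, dKO cells had 43 genes lower (0.392%) and 56 higher (0.510%) than Eomes KO cells among 10981 examined. Against T KO cells the counts were 980 lower (8.70%) and 1096 higher (9.73%) among 11260, with WT columns that differed by a factor of 0.959. The T KO column also differed as a whole. Its FPKM summed to 439751, with 4.48% in short RNA genes, against 608585 and 9.91% in dKO cells. Its median log2 ratio to WT was -0.11 for the shortest and 0.05 for the longest transcripts. In dKO cells these medians were 0.26 and -0.27. The part of these features in the counts was not tested. Each single knockout against WT gave, for Eomes KO cells, 424 genes lower (3.78%) and 358 higher (3.19%), and for T KO cells 1065 lower (9.38%) and 596 higher (5.25%).

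T was the only gene at an FPKM of at least 5, short RNA, ribosomal protein and histone genes aside, that was lower in dKO than in Eomes KO cells, with 2.77 against 22.3 and a log2 ratio of -2.97. Of 337 list members examined in this pair, 5 were called: T, Rhox5 and Myl4 lower, and Rhox6 and Rhox9 higher. Rhox6 was at 3.88 in Eomes KO and 13.1 in dKO cells, and Rhox9 at 2.36 and 6.77; both belong to an X-linked homeobox cluster. Short transcripts had higher ratios in this pair too, with a median of 0.16 for the shortest and -0.17 for the longest protein-coding genes. Fmr1nb was at 7.98 in Eomes KO and 33.3 in dKO cells (2.05). Sp5 was at 0.606 in Eomes KO and 0.521 in dKO cells, Mixl1 at 0.416 and 0.239, Hand1 at 1.71 and 2.78, Fgf8 at 2.38 and 3.47, Sox1 at 7.17 and 5.17, and Pax6 at 4.54 and 4.23. None of these differed by 2-fold or more between the lines.

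T KO cells had some of the same genes at other levels. Cdx2 was at 3.76 in T KO cells, close to 3.66 in dKO cells. Sox1 was at 4.01, against 5.17 in dKO cells and 0.200 in WT. Pax6 was at 0.784 and Hoxb2 at 2.17, below dKO cells, and Apln was at 2.37 and Hand1 at 7.02, near their WT levels of 2.45 and 8.57. With the same WT samples in each comparison, these values are given as levels only.

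The next day offers other samples of the same lines. On day 3, 600 genes (5.23%) were lower and 580 (5.06%) higher in dKO cells among 11473. Of the 448 genes lower on day 2, 414 were examined on day 3, where 153 (37.0%) were again lower and 7 (1.69%) higher, with a median of -0.67. Those 153 make up 25.5% of the genes lower on day 3. Of the 373 higher on day 2, 319 were examined, where 159 (49.8%) were again higher and 11 (3.45%) lower, with a median of 0.98, and the 159 make up 27.4% of the genes higher on day 3. Mixl1 was at 16.2 in WT and 0.173 in dKO cells on day 3, Sp5 at 13.1 and 0.613, Apln at 26.7 and 0.439, and Fst at 181 and 8.27. Hand1 and Peg10, lower on day 2, were at 21.3 and 32.2 and at 126 and 117 on day 3, and were not called.

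Cdx2, Nkx1-2 and Hoxb1 were higher on day 2 and lower on day 3. Cdx2 was at 7.55 in WT and 1.96 in dKO cells on day 3, Nkx1-2 at 10.0 and 4.10, and Hoxb1 at 2.80 and 1.28. Hoxb2 was no longer called, at 6.16 and 8.52. Between the separately scaled columns of the days, the dKO levels of Hoxb1 and Hoxb2 differed by less than 1.5-fold, while the WT levels of both were higher on day 3.

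**Figure D5:**
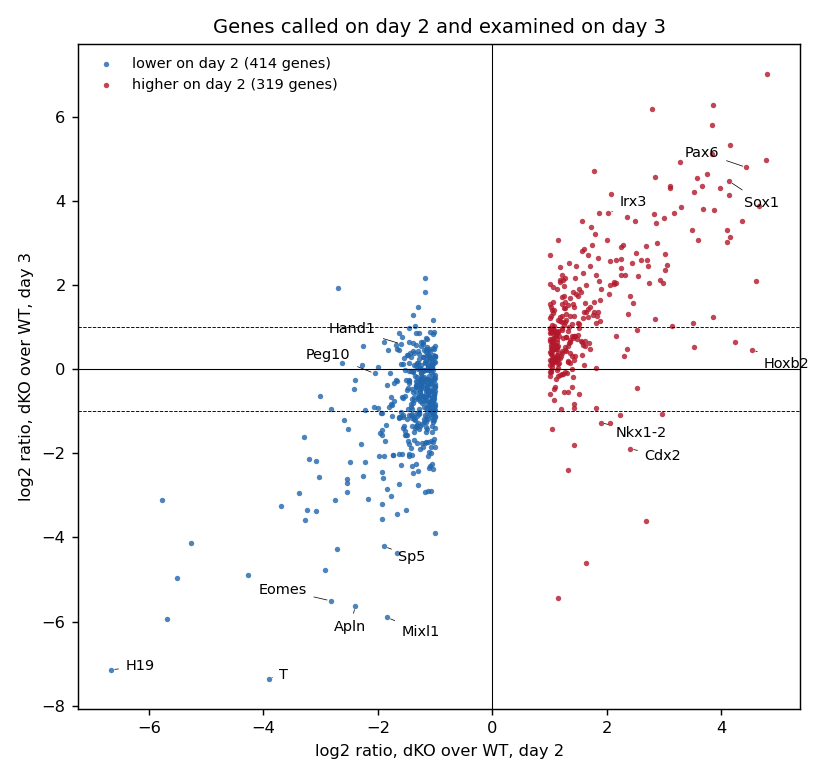
Log2 ratio of dKO to WT on day 2 (horizontal) and day 3 (vertical) for the 414 lower (blue) and 319 higher (red) genes of day 2 that were examined on day 3; dashed lines mark the limits of a call on day 3. Most points keep their side: 153 blue points lie below the lower line and 159 red points above the upper line, while Cdx2 and Nkx1-2 lie on the right and below the lower line.

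Columns that the calls did not use show these genes in other samples. Between day 1 and day 3 of the WT time course 1560 genes (13.6%) were higher and 1003 (8.72%) lower on day 3 by the same rule among 11496. Of 423 genes lower in dKO cells that were examined there, 180 (42.6%) were higher and 54 (12.8%) lower on day 3, with a median of 0.65. Of 306 higher genes, 54 (17.6%) were higher and 85 (27.8%) lower, with a median of -0.04. Genes called lower passed the FPKM minimum through the WT day 2 column, which is of the same line as this time course. These shares are therefore not independent of the calls. In Smad4 KO cells of the other line, which lack the common mediator of Nodal and BMP signals, 335 genes (3.05%) were lower and 257 (2.34%) higher than in their own WT among 10999. Of 396 genes lower in dKO cells and examined there, 84 (21.2%) were lower and 8 higher, and the 84 amount to 25.1% of the 335. Of 263 higher genes, 35 (13.3%) were higher and 27 (10.3%) lower. T had a log2 ratio of -4.75 and Eomes of -3.76 in Smad4 KO cells, Nefl of -3.14 and Sox1 of 3.19. Meis2, higher in dKO cells, was at 3.77 in the WT and 1.36 in the Smad4 KO cells of that line (-1.40).

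The limits of a call were met closely by some genes. Pcx, Furin and Grik5 lay just inside the lower limit, with 3.83 in WT and 1.86 in dKO cells for Furin, and Obsl1 (8.31 and 4.11) and Tgfa just outside it. Zfp958 (14.9 and 29.9) and Fas lay just inside the upper limit, and Rgs20 and Tm2d3 (31.3 and 62.5) just outside it.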

How the data were processed

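RNA-seq libraries were strand-specific (ScriptSeq v2). Per the submitters' notes and the methods, reads went through FastQC and cutadapt 2.9, were mapped to mm10 by HISAT2 2.1.0 and sorted with SAMtools 1.9, and the authors computed FPKM with Cuffdiff 2.2.1, with its corrections for multi-mapped reads and sequence bias and without that for effective length. Splice sites and exons for mapping came from RefSeq. The deposited values are FPKM, scaled by Cuffdiff within each table, with a single value per condition over its samples. Whether counting used strand is not given in the sources used here, so overlapping antisense genes are uncertain. FPKM depends on transcript length and on the highly abundant short RNAs. Log2 ratios of FPKM with a pseudocount of 0.1 were taken for genes with an FPKM above 1 in either column, and genes beyond 1 in size were called (Python 3.11.15, pandas 2.3.3, numpy 2.4.6). The step was tested on simulated data, with changes well beyond the limit and small noise. That run checks only that the calling works as written. It held no length trend, no shift of short RNAs and no added error at low FPKM. No test, interval or depth could be had from pooled FPKM values.

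Groups followed the labels. Named genes were Eomes and T, the 12 lowest and 12 highest log2 ratios among called genes with an FPKM of at least 5 (short RNA, ribosomal protein and histone genes were described as classes), and members of 29 gene lists. Some of these genes, and the list of Hox cluster genes as a whole, are not reported here. Those lists and the genes were chosen with earlier results of these data known. Genes near the limits of a call, Kynu, Dok2 and Nab2 were named after their values were seen. Of 24538 symbols 24448 matched RefSeq GRCm38.p6, the source of coordinates and promoter windows; transcript lengths came from GENCODE M21. In all, 10 planned and 2 added alternatives were tried.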

Additional observations from a re-analysis of the deposited data

Results flagged for a closer look

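Of the list genes called in dKO cells on day 2, 3 were called in the opposite direction on day 3, where other WT and dKO samples were used. Cdx2 had a log2 ratio of 2.41 on day 2 and of -1.895 on day 3. Hoxb1 had 2.96 and -1.07, and Nkx1-2 had 1.89 and -1.27. Each rests on a single pooled value per condition and day, and the difference between the days was not tested.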

How the results depend on the processing

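The main counts were 448 lower and 373 higher genes. A pseudocount of 1 gave 170 lower and 234 higher genes, no FPKM minimum gave 861 and 804, an FPKM above 5 gave 169 and 214, and a limit of 2 on the log2 ratio gave 49 and 100. TPM rescaling gave 1755 lower and 268 higher genes, and leaving out short RNA genes with columns rescaled to the same sum gave 1043 and 150; the cause was not tested beyond the column sums given above. The other alternatives stayed within 1.5 times: a pseudocount of 0.01 (496 and 388), none (504 and 390), scaling to a median of 0 over genes above an FPKM of 5 (523 and 309) and the WT column of the time-course table (472 and 355). Chosen after seeing the data, subtracting the length trend gave 428 lower and 286 higher genes, and dropping short RNA, ribosomal protein and histone genes gave 441 and 280. Of 107 called genes followed through the alternatives, none changed direction; 69 kept their call with an FPKM above 5, below which the other 38 lay, 77 with a pseudocount of 1, 99 on the TPM scale and 94 with the length trend subtracted. No paired analysis was possible because each column pools its samples, and no replicate could be left out. The depth is unknown, so values near an FPKM of 1 carry an error that cannot be stated.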

Other observations

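Outside the gene lists, 15 further genes were called in opposite directions on the 2 days. Kynu, an enzyme of tryptophan breakdown, had the lowest log2 ratio of those lower on day 2, with 1.22 in WT and 0.102 in dKO cells, and stood at 0.284 and 1.36 on day 3. Dok2, an adaptor protein, was at 5.04 and 1.98 on day 2 and at 1.83 and 5.27 on day 3. Nab2, a co-repressor of Egr proteins, was at 1.65 and 4.60 on day 2 and at 30.6 and 8.75 on day 3. None of these differences was tested, and the genes were picked after their values were seen.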
